A study of Mus musculus with 23 samples.

Results

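The 10 genes described here carry signals of the transforming growth factor beta (TGF-beta) and bone morphogenetic protein (BMP) families: the ligand genes Tgfb1, Tgfb2, Tgfb3, Bmp4 and Inhba, the receptor genes Tgfbr1, Tgfbr2 and Bmpr1a, and the target genes Id1 and Id3. They were taken by symbol, in a choice made with earlier results of these data known, from the 23284 genes of a table of RNA-seq expression. The table holds 16 single mouse bone marrow mesenchymal stem cells (mMSC1 to mMSC16), 5 single HL-1 cardiomyocytes (HL1cm1 to HL1cm5) and 1 library of the bulk population of each cell type (mMSC-PC and HL1cm-PC). The mMSCs were bought as cultures from 3-month-old male mice, labelled C57BL/6J, and grown at passages 6 to 11 in alpha-MEM with fetal bovine serum. HL-1 is a mouse atrial cardiomyocyte line, also labelled C57BL/6J, which was grown at passages 70 to 85 in Claycomb medium with serum and norepinephrine and served as the control cell type. No cell received a TGF-beta family ligand or inhibitor by the labels, both cell types were caught on the same microfluidic chip, and the HL1cm carried a green dye that the mMSCs lacked. Cell type, medium and dye therefore cannot be told apart. No separate cultures were named, so each cell type counted as 1 sample, its cells were not replicates, and no test was made between the cell types.

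TGF-beta, activin and BMP ligands are secreted dimers that bring together type II and type I serine/threonine kinase receptors at the cell surface. The type I receptor then phosphorylates Smad proteins, Smad2 and Smad3 for TGF-beta and activin and Smad1, Smad5 and Smad9 for BMP, and these enter the nucleus with Smad4. In mesenchymal stem cells of the marrow, TGF-beta is widely used to induce cartilage and BMP to induce bone, and both families act on smooth muscle genes.

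Expression was given as FPKM, the number of fragments scaled by exon length and by the mapped total of the library, which allows levels of different genes to be set side by side. A gene was called detected at 1 FPKM or more. The number of genes detected ran from 5178 to 7241 over the mMSCs and from 6428 to 7010 over the HL1cm, and was 9625 for mMSC-PC and 9881 for HL1cm-PC. The fewest were in mMSC9 with 5178 and mMSC15 with 5837. Of the 23284 genes, 38.3% were listed at 0 in all 23 libraries, and even genes of general use in cells were listed at 0 in 8 of 252 single-cell values, so a 0 here is a listed value and does not show that a transcript was absent. The marker genes went with the labels: 7 of 9 mesenchymal markers were detected in all 16 mMSCs (Thy1 was listed at 0 in every library), 8 of 10 cardiomyocyte markers were detected in all 5 HL1cm, and the summed cardiomyocyte markers reached at most 65.4 FPKM in an mMSC against 32780 to 59987 FPKM in HL1cm. Macrophage markers summed to 0 to 48.1 FPKM in mMSCs and endothelial markers to 0 to 10.8 FPKM. Ptprc, Emr1, Lyz2, Fcgr1, Cdh5, Tek and Tie1 were at 0 in all 23 libraries, so their zeros say nothing about other cell types. Pecam1 was at 0 in all 16 mMSCs. Of the 7 macrophage markers, 2 were detected in at least 1 mMSC, with a median of 1 detected per mMSC. The library mMSC-PC had 3 detected, Cd68, Csf1r and Itgam.

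In the GENCODE M21 annotation of mm10, Inhba spans chr13:16011851-16031621 on the plus strand, Id3 spans chr4:136143497-136145755 and Id1 spans chr2:152736251-152737410, both also on the plus strand. Exons of Tgfb2, Tgfb3, Bmp4 and Bmpr1a overlap exons of other annotated genes, and the counting was not stated to use strand. Fragments from those other genes could thus have been counted for Tgfb2, Tgfb3, Bmp4 or Bmpr1a. By symbol, only the gene overlapping Bmp4, Gm15217, is in the expression table, so only there could fragments have been assigned to either gene. Inhba, Id1, Id3, Tgfb1, Tgfbr1 and Tgfbr2 have no such overlap. The Inhba promoter is shown because Inhba had the highest level of the 10 genes in the mMSCs. The 250 bases before the RefSeq start, at chr13:16011601-16011850 of GRCm38.p6 on the plus strand, read:
Inhba promoter: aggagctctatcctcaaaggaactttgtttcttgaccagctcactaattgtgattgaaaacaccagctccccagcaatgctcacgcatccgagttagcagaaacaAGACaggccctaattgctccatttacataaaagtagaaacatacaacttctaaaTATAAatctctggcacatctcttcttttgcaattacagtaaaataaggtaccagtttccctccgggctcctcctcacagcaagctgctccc
The capitals mark AGAC, which is the Smad element GTCT read from the other strand and begins at base -145, and TATAA, which begins at base -91, where base -1 lies just before the start. Of 27025 promoters of the same length, 83.0% held GTCT and 23.5% held TATAA on either strand. The GC-rich Smad element GGCGC, held by 32.1% of promoters, and the AP-1 element TGANTCA, held by 6.87%, were not in this window on either strand. The matches of GTCT and TATAA did not overlap.

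The mMSCs held Inhba and Id3 in every cell and Id1 in most cells, and the receptors and Tgfb2 and Tgfb3 at lower values or in some cells only. By their median over 16 cells, the order was Inhba at 510 FPKM, Id3 at 130 FPKM, Id1 at 36.3 FPKM, Bmpr1a at 8.36 FPKM, Tgfbr2 at 5.95 FPKM and Tgfb3 at 2.99 FPKM, while Tgfb1, Tgfb2, Bmp4 and Tgfbr1 had a listed median of 0. The ranges of neighbours in this order overlapped, and Inhba was above Id3 in 14 of 16 cells. Of the 10 genes, 4 to 7 were detected per mMSC (median 6) and 2 to 5 per HL1cm. The population controls had 8 in mMSC-PC and 7 in HL1cm-PC.

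**Figure D1:**
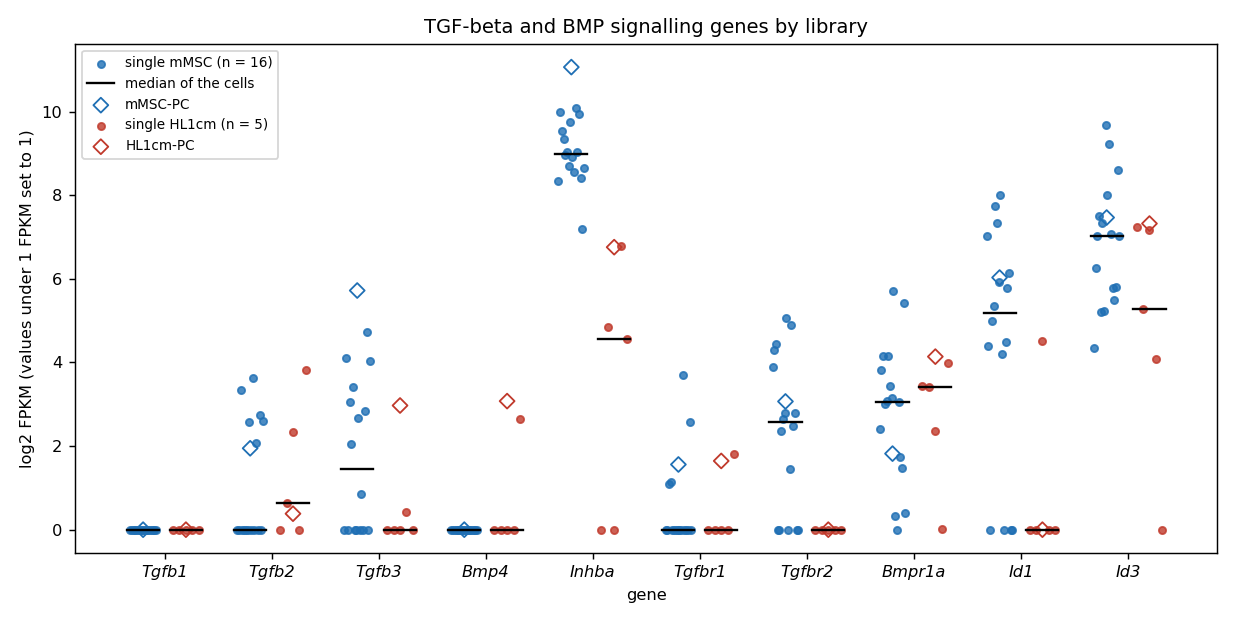
Levels of the 10 genes in every library as log2 FPKM, with values under 1 FPKM set to 1. Filled points are single mMSCs (blue, n = 16) and single HL1cm (red, n = 5), bars are the medians of the cells and open diamonds are the population controls. The 16 mMSCs lie above the 5 HL1cm for Inhba, while the cell types overlap for the other 9 genes.

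Among the ligands, Inhba stood apart. It encodes the inhibin beta A subunit, which pairs with itself to form activin A, a ligand that signals through Smad2 and Smad3. Its level in the mMSCs ran from 147 FPKM in mMSC15 through a median of 510 FPKM to 1079 FPKM in mMSC11, a ratio of 7.35 between the highest and the lowest cell. The library of mMSC15 had few genes detected, 5837, and the next lowest Inhba level was 326 FPKM in mMSC1. Over the 16 mMSCs, Pearson's r of Inhba with the number of genes detected was 0.33, and -0.10 without mMSC9 and mMSC15. The 5 HL1cm were at 0, 28.8, 0, 111 and 23.8 FPKM in order from HL1cm1 to HL1cm5. Every mMSC was thus above every HL1cm, and the mMSC median was 21.5 times the HL1cm median. On the log2 scale with values under 1 FPKM set to 1, the mean of the mMSCs was 5.79 above that of the HL1cm, and this difference lay between 4.98 and 6.68 when each HL1cm was left out in turn. The population controls were at 2141 FPKM in mMSC-PC and 108 FPKM in HL1cm-PC.

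The TGF-beta isoforms themselves were listed at 0 in many or all cells. Tgfb1, the founding isoform of the family, was listed at 0 in all 23 libraries, both bulk controls included, so these values give no level for it. Tgfb3 was detected in 9 of 16 mMSCs, or 56.2% (exact Clopper-Pearson 95% interval 29.9 to 80.2, which covers counting error only), and in 1 of 5 HL1cm. Its highest mMSC values were 26.6 FPKM in mMSC14, 17.3 FPKM in mMSC2 and 16.4 FPKM in mMSC16, and the median of the cells above 0 was 8.25 FPKM. In the HL1cm it was listed at 0 except for 1.35 FPKM in HL1cm4, and the mean log2 level was 1.65 higher in mMSCs. With values under 10 FPKM set to 10 this difference shrank to 0.19, so it lay in values of a few FPKM.

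Tgfb2 was detected in 6 of 16 mMSCs, or 37.5% (15.2 to 64.6), and in 3 of 5 HL1cm, or 60% (14.7 to 94.7). The highest mMSCs were mMSC10 at 12.4 FPKM and mMSC3 at 10.2 FPKM, and the HL1cm were at 0, 1.56, 5.09, 0 and 14.2 FPKM. The cell types overlapped fully, and the difference of -0.30 (log2) changed sign when each HL1cm was left out in turn, between -0.64 and 0.31. Tgfb2 and Tgfb3 were both above 0 in 3 mMSCs, Tgfb2 alone in 4, Tgfb3 alone in 6 and neither in 3.

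Bmp4, a BMP ligand of bone and heart development, was listed at 0 in all 16 mMSCs and in mMSC-PC. Among HL1cm it was at 0 in HL1cm1 to HL1cm4 and at 6.31 FPKM in HL1cm5, and HL1cm-PC held 8.43 FPKM. Gm15217, whose exons overlap Bmp4, was itself at 0 in all 23 libraries.

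**Figure D2:**
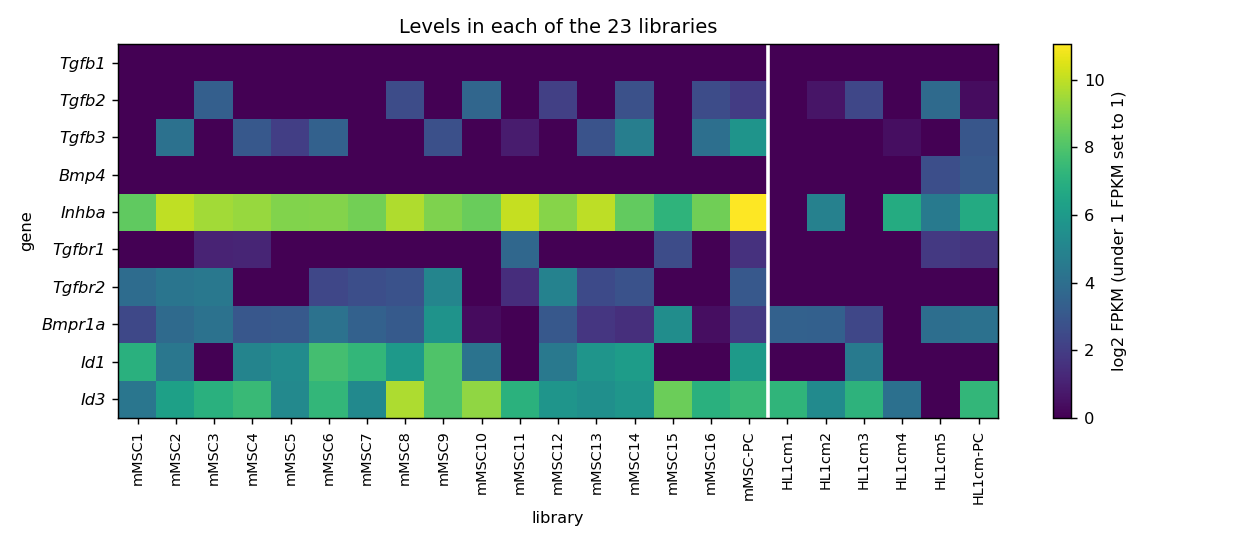
Level of each of the 10 genes in each of the 23 libraries as log2 FPKM, with values under 1 FPKM set to 1 and the white line between the mMSC libraries and the HL1cm libraries. Inhba and Id3 are present in every mMSC column, whereas Tgfb2, Tgfb3 and Tgfbr1 are filled in some cells and empty in others.

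The receptors were detected in unequal shares of the mMSCs. Tgfbr2, the type II receptor that binds TGF-beta, was detected in 11 of 16 mMSCs, or 68.8% (41.3 to 89.0), with a median of 5.95 FPKM and the highest values of 33.2 FPKM in mMSC9 and 29.9 FPKM in mMSC12. HL1cm-PC and each of the 5 HL1cm listed it at 0, so no fold is given. By counting error alone, 0 of 5 cells allows a share of up to 60% of cells with a listed value. The bulk library mMSC-PC held 8.38 FPKM.

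Tgfbr1, the type I receptor that Tgfbr2 activates, was detected in 4 of 16 mMSCs, or 25% (7.27 to 52.4). The 4 cells were mMSC11 at 12.9 FPKM, mMSC15 at 5.98 FPKM, mMSC4 at 2.22 FPKM and mMSC3 at 2.12 FPKM, and in the HL1cm only HL1cm5 was above 0, at 3.52 FPKM. The controls were alike, with 2.95 FPKM in mMSC-PC and 3.13 FPKM in HL1cm-PC. Both receptors were above 0 in 4 mMSCs, Tgfbr2 alone in 7, Tgfbr1 alone in 2 and neither in 3.

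Bmpr1a, a type I receptor for BMP ligands, was detected in more mMSCs than Tgfbr1 and Tgfbr2, in 15 of 16, or 93.8% (69.8 to 99.8), and in 5 of 5 HL1cm. The mMSCs ran from 0 in mMSC11 through a median of 8.36 FPKM to 51.9 FPKM in mMSC9, and the HL1cm were at 10.8, 10.6, 5.11, 1.01 and 15.98 FPKM. The cell types overlapped, with a difference of 0.19 (log2) that ranged from -0.47 to 0.53 when each HL1cm was left out in turn. The highest values, in mMSC9 and in mMSC15 at 42.6 FPKM, came from the libraries with the fewest genes detected. Over the 16 cells, Pearson's r of Bmpr1a with the number of genes detected was -0.52, and 0.16 without these cells.

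Id1 and Id3 encode helix-loop-helix proteins without a DNA-binding region, which hold back transcription factors of differentiation and are textbook targets of BMP and Smad1. Id3 was detected in 16 of 16 mMSCs (79.4 to 100%), from 20.3 FPKM in mMSC1 through a median of 130 FPKM to 822 FPKM in mMSC8, a ratio of 40.5. The HL1cm were at 152, 39.0, 143, 17.1 and 0 FPKM, and the cell types overlapped. The mean log2 level was 2.10 higher in mMSCs, but 0.91 without HL1cm5, which ended the call at 2-fold. The population controls were close, at 177 FPKM in mMSC-PC and 160 FPKM in HL1cm-PC.

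Id1 was detected in 12 of 16 mMSCs, or 75% (47.6 to 92.7), and in 1 of 5 HL1cm, or 20% (0.505 to 71.6). It was listed at 0 in mMSC3, mMSC11, mMSC15 and mMSC16, had a median of 36.3 FPKM, and reached 257 FPKM in mMSC9 and 214 FPKM in mMSC6. In the HL1cm it was at 0 except for 22.9 FPKM in HL1cm3, and HL1cm-PC was at 0 against 65.4 FPKM in mMSC-PC. The mean log2 level was 3.56 higher in mMSCs, although 4 mMSCs shared the listed 0 of most HL1cm. All 12 mMSCs with Id1 also held Id3, 4 held Id3 alone, and Id1 was the higher of the pair in 6 cells. Id1 and Id3 did not vary together over the 16 mMSCs, with r = -0.25 and rho = -0.21.

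**Figure D3:**
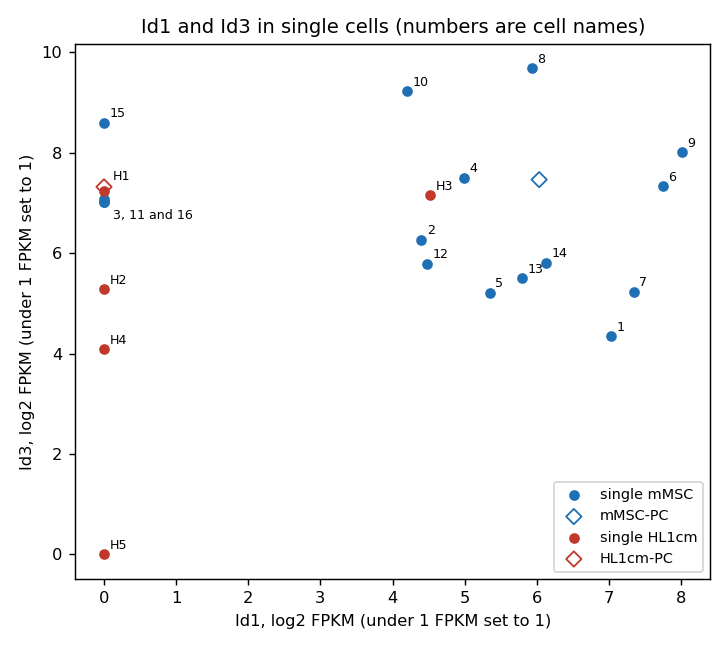
Id1 (x axis) against Id3 (y axis) in each library as log2 FPKM, with values under 1 FPKM set to 1, mMSCs in blue labelled by cell number, HL1cm in red labelled H1 to H5, and open diamonds for the population controls. The 4 mMSCs at 0 for Id1 hold Id3 between 129 and 387 FPKM, and mMSC1, among the highest for Id1, has the lowest Id3 of the mMSCs.

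Set against all genes, 8 of the 10 genes passed a filter of 1 FPKM or more in at least 2 of the 21 single cells; Tgfb1 and Bmp4 did not. Of these 8, Tgfb3, Inhba, Tgfbr2, Id1 and Id3 were higher in mMSCs by at least 2-fold in mean log2 level, where 21.4% of the 11850 genes of the filter were, and none was lower, where 21.6% of genes were. With values under 1 FPKM set to 1, a gene with a mean log2 level under 1 in HL1cm could not be called lower. This held for Tgfbr2 at 0, Tgfb3 at 0.086, Tgfbr1 at 0.36 and Id1 at 0.90. The 5 of 8 higher and none lower are therefore a description. Only Inhba had every mMSC above every HL1cm, as 2.26% of genes did. The median difference was 1.87 over the 8 genes, against 0.084 over all genes of the filter. Over the 7 that were above 0 in a HL1cm it was 1.65, for which no like median over all genes was taken. Among the mMSCs, the median SD of log2 level was 1.61 for the 8 genes and 1.31 for all 11850, and it ranged from 0.75 for Inhba to 2.89 for Id1.

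**Figure D4:**
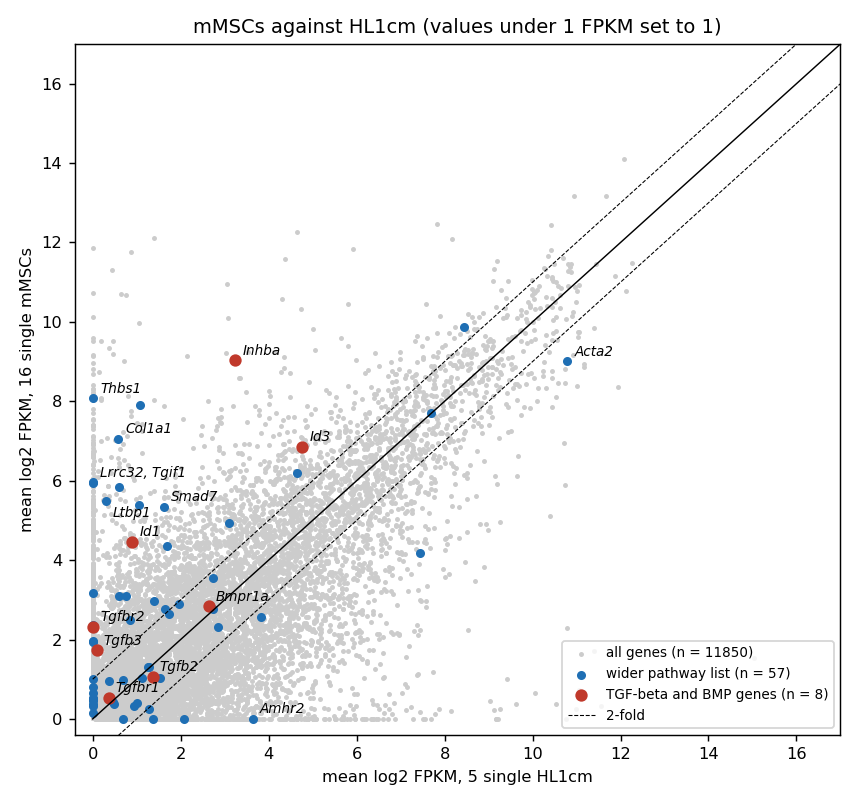
Mean log2 FPKM of 16 single mMSCs (y axis) against 5 single HL1cm (x axis), with values under 1 FPKM set to 1, for 11850 genes (grey), the wider pathway list (blue, 57 genes) and the TGF-beta and BMP genes (red, 8 genes). The solid line marks equal levels and the dashed lines a 2-fold difference. Inhba, Id3, Id1, Tgfbr2 and Tgfb3 lie above the upper dashed line, and Bmpr1a, Tgfb2 and Tgfbr1 lie between the lines.

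A wider list of 78 genes of the pathway was followed by role. Of these, 13 were listed at 0 in all 23 libraries and 57 passed the filter, with 24 higher in mMSCs by at least 2-fold, 7 lower and a median difference of 0.66. The median was 0.38 over the 40 genes that were above 0 in a HL1cm, and the rest of the 57 could not be lower. Some of the 40 could not be called lower by 2-fold either, as their mean log2 level in HL1cm was under 1. Examples are Ltbp1 at 0.30, Col1a1 at 0.59 and Smad3 at 0.77. The counts of 24 and 7 are thus a description. The counts by role that follow stand beside the 21.4% of all genes higher and 21.6% lower. Of 18 other ligands, 9 were listed at 0 in every library and none was detected in as many as 8 mMSCs. Of the 6 that passed the filter, only Inhbb, which encodes the beta B subunit of activin B, was higher by 2-fold. It was detected in 7 mMSCs at up to 11.9 FPKM and was at 0 in all HL1cm, and its log2 difference of 1.002 barely passed. Gdf15, a stress-induced ligand, had the highest mMSC value of the 18, 41.6 FPKM, and was detected in 3 mMSCs and 1 HL1cm, with 44.4 FPKM in mMSC-PC and 157.8 FPKM in HL1cm-PC. Bmp2 reached 21.4 FPKM and Gdf5 reached 9.54 FPKM, each in 2 mMSCs. Gdf9, Gdf6 and Bmp3 were at 0 in all mMSCs, and in HL1cm reached 34.1, 21.2 and 2.90 FPKM. Gdf9 and Gdf6 were each above 0 in 1 HL1cm only and did not pass the filter, and Bmp3 was detected in 3. HL1cm-PC was at 0 for Gdf9 and Bmp3 and at 20.6 FPKM for Gdf6.

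Of 11 other receptors, 8 passed the filter, 2 were higher in mMSCs and 3 lower. Tgfbr3, betaglycan, which presents TGF-beta2 to Tgfbr2 and binds inhibin, was detected in all 16 mMSCs from 5.10 through 22.2 to 80.4 FPKM, and in 3 of 5 HL1cm. Its median exceeded that of each signalling receptor measured here. Acvr1, a type I receptor for BMP and activin, was detected in 10 of 16 mMSCs at up to 30.1 FPKM and in no HL1cm, although HL1cm-PC held 6.96 FPKM.
Of the other receptors that bind activin, Acvr2a, a type II receptor, was detected in 7 of 16 mMSCs at up to 13.7 FPKM, Acvr2b in none, and Acvr1b, the main type I receptor for activin, was listed at 0 in all 21 single cells and in mMSC-PC, with 3.35 FPKM in HL1cm-PC. Bmpr2, the type II receptor for BMP, was detected in 10 of 16 mMSCs with a median of 1.91 FPKM, and Bmpr1b in 5 at up to 8.69 FPKM. In the other direction, Amhr2, the receptor for anti-Mullerian hormone, was at 0 in every mMSC and between 4.99 and 35.5 FPKM in the 5 HL1cm. It was the 1 gene of the 78 with every mMSC below every HL1cm, as 1.88% of all genes were. Acvr2b and Eng were the other receptors lower by 2-fold, and each was detected in 2 of 5 HL1cm, at up to 48.2 and 29.5 FPKM.

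All 6 signalling Smads passed the filter. Smad3 had a median of 11.6 FPKM in mMSCs and 0.806 FPKM in HL1cm, a log2 difference of 2.33, and Smad1 had medians of 9.47 and 1.23 FPKM, a difference of 1.58. Smad4, the shared partner, was at medians of 8.45 and 9.497 FPKM, with a difference of 0.03. Smad2 had a median of 3.10 FPKM in mMSCs, Smad5 had 1.49 FPKM, and Smad9 was detected in 2 mMSCs. None of Smad2, Smad5 and Smad9 passed 2-fold.

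Genes that hold, release or block the ligands outside the cell were higher by 2-fold for 9 of 16 that passed the filter, of 20 in the list, against 21.4% of all genes, and 8 of the 16 were listed at 0 in all HL1cm and so could not be lower. Thbs1, thrombospondin 1, which can activate latent TGF-beta, ran from 61.0 through 335 to 630 FPKM in mMSCs and was at 0 in all HL1cm. Lrrc32, which tethers latent TGF-beta at the cell surface, ran from 16.2 through 71.9 to 128 FPKM and was likewise at 0 in all HL1cm. Ltbp1, which anchors latent TGF-beta in the matrix, was the most even of these over the mMSCs, from 30.6 through 41.0 to 79.1 FPKM, and reached at most 2.78 FPKM in a HL1cm. These 3 genes had every mMSC above every HL1cm, as 2.26% of all genes did.
Bmp1, a protease of the matrix and of BMP antagonists, had medians of 49.95 and 0 FPKM. Fstl1, a follistatin-related secreted protein, had the highest median of the wider list, with 979 FPKM in mMSCs and 489 FPKM in HL1cm. Follistatin itself, Fst, which binds activin, was detected in 5 mMSCs at up to 13.5 FPKM. Twsg1, a BMP-binding protein, was the 1 gene of this group lower by 2-fold, with medians of 6.84 and 21.6 FPKM.

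Inhibitors inside the cell, several of which are induced by the pathway itself, were higher for 6 of 9. In HL1cm, Tgif1, Smurf1 and Smad6 had mean log2 levels of 0, 0.60 and 0.47. These levels, and those of some others of the 9, were too low for a call of lower by 2-fold. Smad7, which blocks the type I receptors, ran from 8.02 through 45.2 to 76.9 FPKM in mMSCs, was detected in 2 of 5 HL1cm at up to 17.0 FPKM, and differed by 3.72 (log2). Skil, a repressor of Smad targets, was at medians of 84.9 and 36.4 FPKM. Tgif1, a Smad corepressor, was detected in 15 of 16 mMSCs with a median of 77.9 FPKM and in no HL1cm. Pmepa1 and Smurf1 were detected in all 16 mMSCs, at medians of 29.0 and 7.04 FPKM. Ski and Smad6 did not pass 2-fold.

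The targets were mixed. Of 12 that passed the filter, 4 were higher and 3 lower. Col1a1, a chain of type I collagen, ran from 30.8 through 134 to 385 FPKM in mMSCs against at most 7.61 FPKM in HL1cm. The cell types did not overlap for it, as for 2.26% of all genes in this direction. Ctgf had a median of 74.0 FPKM in mMSCs and 0 in HL1cm. Id2, the relative of Id1 and Id3, was at medians of 224 and 252 FPKM, with a difference of 0.03. The smooth muscle genes Acta2 and Tagln lay the other way, at medians of 554 and 14.3 FPKM in mMSCs and 1523 and 234 FPKM in HL1cm, and Hey1 was at 0 in all mMSCs and detected in 2 HL1cm. Many of these genes have other regulators, and collagen and smooth muscle genes also mark cell types.

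The population control of the mMSCs was set beside the single cells. In such a bulk library, fewer cells with a transcript and less of it per cell cannot be told apart. Of the 6 genes detected in at least 8 mMSCs, mMSC-PC was above all 16 cells for Tgfb3, at 52.7 FPKM or 8.53 times their mean, and for Inhba, at 2141 FPKM or 3.65 times their mean. Over 6777 genes detected in at least 8 mMSCs, 9.95% lay above all 16 cells and 3.48% below. Id1, Id3 and Tgfbr2 were near the mean of the cells, at 0.965, 0.903 and 0.875 times, and Bmpr1a was at 0.278 times, a mean that the 2 libraries with the fewest genes raise. When every library was scaled by its Gapdh, neither Tgfb3 nor Inhba was above all cells, and 0.428% of all genes were, with 12.2% below. With libraries scaled to equal sums of FPKM, both stayed above all 16 cells, as did 15.7% of all genes. These sums include the highest entry of each library, which ran from 20561 to 1.26e+06 FPKM over the mMSCs and was 26190 FPKM in mMSC-PC. The effect of these entries on this scaling was not tested. By median ratios, a scaling added after the data were seen, both also stayed above, as did 12.2% of all genes.
In the wider list, Ltbp1, Lrrc32, Thbs1, Ctgf, Col1a1 and Acta2 were above all 16 cells and Fstl1 and Skil below. Of the 6 above, Ctgf alone stayed above after scaling by Gapdh, while all 6 stayed above at equal sums and by median ratios.

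**Figure D5:**
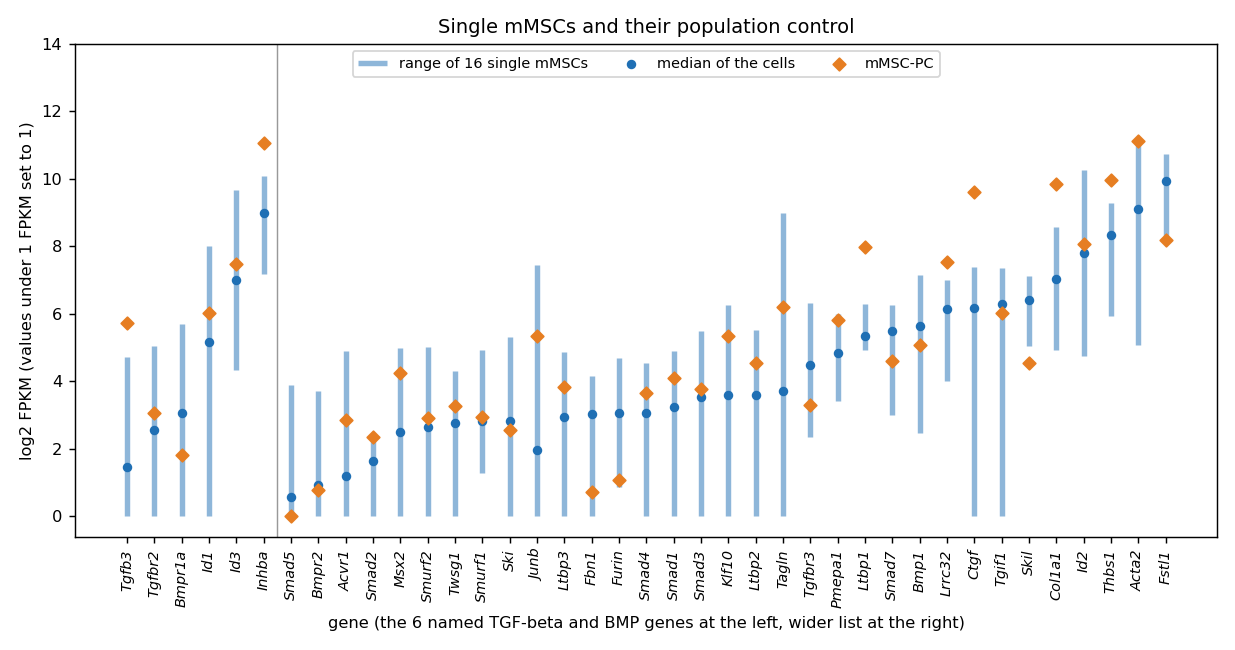
Range (bars) and median (points) of log2 FPKM over 16 single mMSCs, with values under 1 FPKM set to 1, and the population control mMSC-PC (diamonds), for genes detected in at least 8 mMSCs, with the TGF-beta and BMP genes left of the grey line and the wider list right of it. The diamond lies above the bar for Tgfb3 and Inhba and within it for Tgfbr2, Bmpr1a, Id1 and Id3.

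The 6 genes detected in at least 8 mMSCs were also compared cell by cell. Over the 16 cells, which shared a chip and for which no separate cultures were named, none of the 15 pairs reached an absolute Pearson's r of 0.5. The highest was Tgfbr2 with Bmpr1a, at r = 0.40 and rho = 0.39, which became 0.52 without mMSC9 and mMSC15. The r of this pair was 0.55 without mMSC15 and mMSC16, dropped as farthest from the median of Tgfbr2. Other cells at a listed 0 for Tgfbr2 were equally far, so the choice of these cells was arbitrary. Tgfbr2 with Id1 was at 0.35 and Inhba with Tgfbr2 at 0.31. With a proliferation score, the mean log2 level of 10 cycle genes, r lay between -0.28 for Bmpr1a and 0.25 for Tgfb3, rho for Tgfb3 was 0.44, and r for Id1 was 0.21, or 0.41 without the cells farthest from the median of the score.
The genes of the table whose levels over the 16 cells were most like each were Ltv1, Map4k5 and Mecr for Inhba (r of 0.81, 0.81 and 0.80), Nop10, Spred2 and Tada2a for Id1 (0.83, 0.77 and 0.74), and 2310021P13Rik, Pik3c3 and Errfi1 for Id3 (0.81, 0.77 and 0.74). For Tgfbr2 they were Ing2, Mmgt2 and Pmepa1 (0.79, 0.77 and 0.77), of which Pmepa1 is on the wider list. Gprc5b, Cpt1a and Ppp1r12a came nearest to Bmpr1a (0.81, 0.78 and 0.75), and 5930434B04Rik, Decr1 and Sp100 to Tgfb3 (0.75, 0.74 and 0.71). These are the highest of 6777 correlations each over 16 cells, and are listed as a description only.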

How the data were processed

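The authors aligned the reads of 23 libraries to mm10 with TopHat2 2.0.12, estimated abundance with Cufflinks 2.2.1, and deposited FPKM values for 23284 genes, which were used as deposited. Fragment counts were not used here, so no count model was fitted and depth was described by genes detected. Before log2 was taken, 1 replaced every FPKM below it. mMSCs and HL1cm were compared by the difference of mean log2 levels, called at 2-fold among the 11850 genes that reached 1 FPKM in 2 or more single cells. With 1 sample per cell type, no p-value was computed. For 0 of n cells, the upper end of the exact Clopper-Pearson 95% interval was used. The 10 genes, the wider list and the markers were chosen with earlier results of these data known. Named from the wider list were, in each role, up to 4 genes with the highest mMSC median and up to 3 with the largest difference in each direction. Named beyond this rule, after their values were seen, were Acvr1b, Fst, Gdf15 and genes counted in groups of 5 or fewer or set against mMSC-PC. For each gene detected in at least 8 mMSCs, the 3 genes of highest r were named. RefSeq promoters (GRCm38.p6) were matched by symbol for 8 of the 10 genes. Alternatives changed the lower limit, the fold, the filter, the scaling and the cells. 1 gene of the wider list is counted but not reported here. The steps were tested on simulated data. Computation used Python 3.11.15 with pandas 2.3.3 and scipy 1.17.1, numpy 2.4.6, and matplotlib 3.10.9 for plots.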

Additional observations from a re-analysis of the deposited data

Results flagged for a closer look

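Among the 5 HL1cm, 4 of the 10 genes had 1 cell above the lower limit and 4 at 0, which meets Dixon's criterion for groups of 5 (a gap over the range above 0.71) whatever the value of that cell. The cell was HL1cm4 for Tgfb3, at 1.35 FPKM, close to the limit of 1 FPKM. HL1cm5 was the only cell above 0 for Bmp4, at 6.31 FPKM, and also for Tgfbr1, at 3.52 FPKM. For Id1 the lone cell was HL1cm3, at 22.9 FPKM. The gap thus filled the whole range in each case, and the criterion adds nothing to these values. Chance marks about 1 in 20 such groups where values are continuous, and 8 genes were examined. The same HL1cm5 was the only HL1cm at 0 for Id3 and had the highest Tgfb2, at 14.2 FPKM, and its number of genes detected, 7010, was the highest of the 5.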

How the results depend on the processing

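No paired analysis was possible because the results come from no test and cells of the 2 types share no pairing. The higher level of Inhba in mMSCs passed 2-fold under every alternative run, with differences of 4.46 to 6.68. Leaving out each HL1cm in turn gave 4 to 5 of the 10 genes higher and 0 lower, a median difference of 1.27 to 1.98, and 24 to 26 genes of the wider list higher and 5 to 8 lower. In the same runs, 21.4 to 22.8% of all genes were higher and 21.3 to 22.9% lower. By gene, leaving out each HL1cm gave 4.98 to 6.68 for Inhba, 3.33 to 4.46 for Id1, 0.91 to 2.72 for Id3, 1.63 to 1.74 for Tgfb3, -0.64 to 0.31 for Tgfb2, -0.47 to 0.53 for Bmpr1a and 0.077 to 0.531 for Tgfbr1. With values under 10 FPKM set to 10, the median difference fell from 1.87 to 0.31, so most of it lay in values under 10 FPKM. In that run 3 of the 10 genes were higher (Inhba, Id1 and Id3), and the median SD was 0.686. Of the wider list 12 genes were higher and 2 lower, beside 7.44% and 7.69% of all genes. With detection at 10 FPKM, 3 of the 10 genes were detected in at least 8 mMSCs instead of 6. A call at 4-fold left 15 genes of the wider list higher and 3 lower, beside 8.77% and 9.27% of all genes. Scaled by Gapdh, mMSC-PC was above all cells for 0 of the 10 genes and 1 of the wider list and below for 6, beside 0.428% of all genes above and 12.2% below. At equal sums of FPKM it was above for 2 of the 10 genes and 6 of the wider list and below for 0, beside 15.7% and 0.93% of all genes. By median ratios it was above for 2 of the 10 genes and 7 of the wider list, beside 12.2% of all genes. Without mMSC9 and mMSC15, 1 pair of genes passed an absolute r of 0.5 (Tgfbr2 with Bmpr1a). The same pair alone passed without the cells farthest from the median, where the cells dropped for Tgfbr2 were an arbitrary choice among tied cells at 0. Scaling moved the median difference of all genes from 0.084 to 0.21 at equal sums, 0.22 by Gapdh and -0.064 by median ratios, the last of which was added for mMSC-PC after the data were seen. The same 5 genes were higher by 2-fold under each, beside 24.1%, 25.4% and 18.4% of all genes in that order. Depth limits what a 0 means for genes of a few FPKM.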
